A study of Mus musculus with 11 samples.

Results

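The 8 genes described here encode the receptor chains through which the colony-stimulating factors and interleukins 3, 5 and 6 act on myeloid cells: Csf1r, Csf3r, Csf2ra, Csf2rb, Csf2rb2, Il3ra, Il5ra and Il6ra. They were taken by symbol from a table of raw read counts for 55291 gene symbols, and all 8 were found in it. The libraries were made from Lin-cKit+Sca-1+ (LSK) cells, the bone marrow fraction that contains haematopoietic stem cells and multipotent progenitors, sorted from individual C57BL/6 mice. There were 4 wild-type mice (WT), 3 mice labelled as Phf6 knock out (KO) and 4 mice labelled Phf6R274X Tg (Tg), a transgenic genotype with a stop codon in Phf6. The labels state no age, sex, treatment or litter. Of the promoter and cell type that drive the transgene, and of the way the knockout was made, the sources used here say nothing.

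The Phf6 protein is a zinc finger protein of chromatin, encoded on the X chromosome, whose gene is recurrently mutated in leukaemia. CSF1R is a receptor tyrosine kinase for the macrophage growth factor CSF1 and for IL-34. G-CSF receptor chains (Csf3r) pair with each other. The alpha chains for GM-CSF (Csf2ra), IL-3 (Il3ra) and IL-5 (Il5ra) bind their own ligand and signal through a shared beta chain, Csf2rb, and mice carry a further beta chain gene, Csf2rb2, whose product works with the IL-3 alpha chain alone. The IL-6 alpha chain (Il6ra) signals through gp130, the product of Il6st. Except for CSF1R, these receptors have no kinase of their own and use JAK kinases and STAT factors, and as a family they are known for driving progenitors into granulocytes, monocytes, macrophages and eosinophils.

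Read totals ran from 20990446 to 45632018 counts per library, so a gene read 0 times may still hold up to 3 counts, or 0.0657 to 0.143 CPM (counts per library, scaled to the same total for each), a limit for counting error only. The 14 markers of stem cells and of the LSK gate, Kit and Ly6a (Sca-1) among them, summed to between 2648 and 3601 CPM in every library, with none at 0. All 8 genes passed the filter on low counts, and 17183 genes were tested. Phf6 itself, read first as a check of the labels, averaged 121.2 ± 14.2 CPM over the WT libraries (SD throughout), 19.4 ± 4.33 over the KO libraries and 220.1 ± 46.1 over the Tg libraries, and its counts do not separate a transgenic from an endogenous transcript. Xist, the RNA of the inactive X chromosome, lay between 32.7 and 53.8 CPM in the WT and KO libraries and at most at 0.297 in Tg, where 4 Y-linked genes summed to between 49.9 and 367 CPM. WT replicates 1, 2 and 4 and KO replicate 1 held both Xist and Y-linked reads, although the labels speak of individual mice. In the Tg comparisons genotype and this difference cannot be told apart, and the counts of called genes and the family counts below were repeated without those 4 libraries, which leaves 1 WT, 2 KO and 4 Tg. Over all genes edgeR then called 20 for Tg against WT, where it called 846 with every library, and 364 for Tg against KO in place of 978. For Tg against WT none of the calls in the gene lists below was kept with this single WT library, and each of the genes concerned kept its direction.

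None of the 8 receptor genes passed edgeR's quasi-likelihood test over all genes in any of the 3 comparisons, with a Benjamini-Hochberg adjusted p under 0.05 as the threshold. Without the 4 libraries holding both kinds of reads the count stayed at 0 in each. For KO against WT 0.0233% of all genes tested were called, for Tg against WT 4.92% and for Tg against KO 5.69%. At an unadjusted p under 0.05 edgeR gave 1 receptor for KO against WT (Csf1r), 2 for Tg against WT (Csf3r and Il6ra) and 1 for Tg against KO (Csf3r), beside 7.09%, 22.1% and 21.7% of all genes. DESeq2 called Csf3r in both Tg comparisons and no receptor in KO, and limma-voom called none in any comparison. In bulk RNA from sorted cells, fewer cells of a type and less RNA per cell cannot be told apart.

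**Figure D1:**
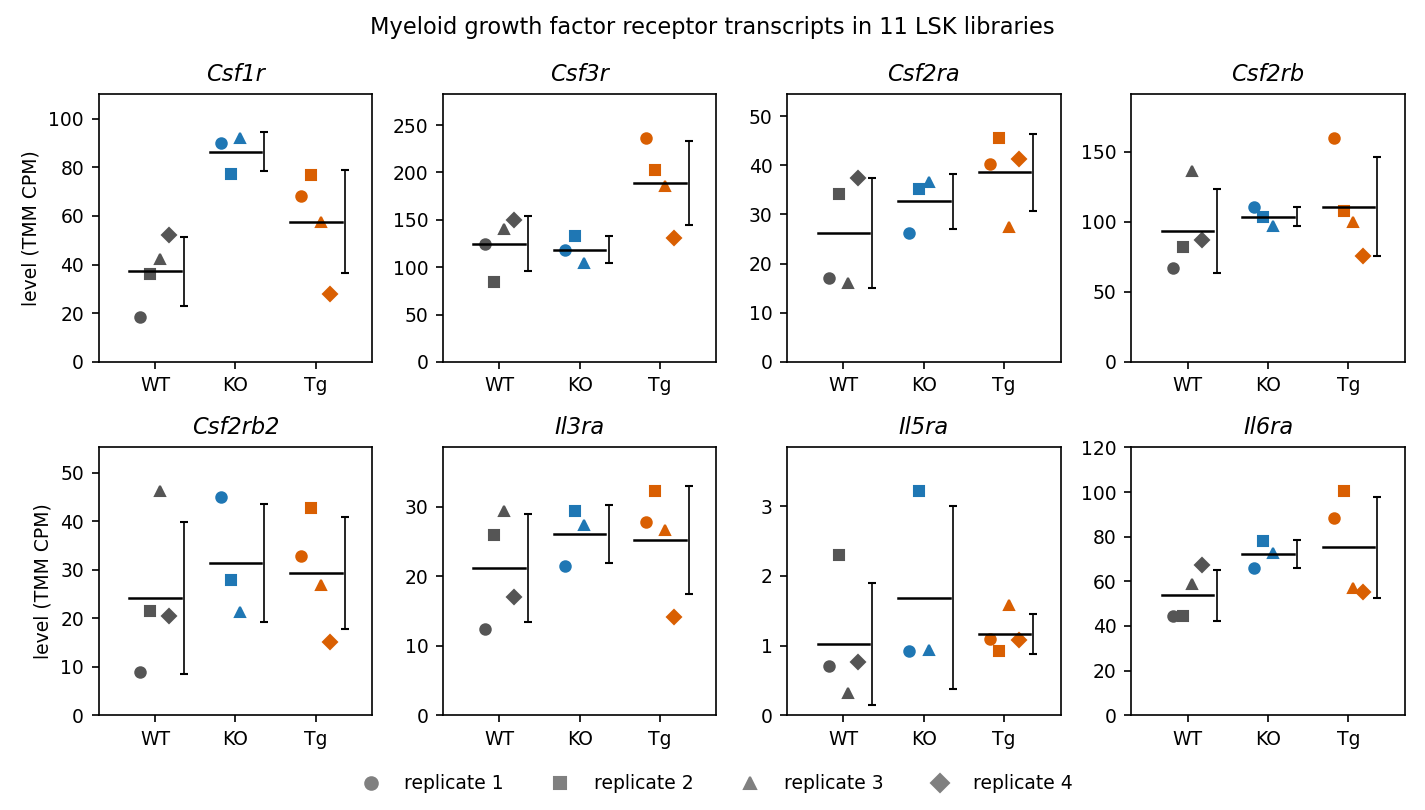
Level of each receptor gene in TMM-scaled CPM for the 4 WT, 3 KO and 4 Tg libraries, with 1 panel per gene, point shapes for the replicate number, a bar at the group mean and whiskers of 1 SD. The 3 KO libraries sit between 77.4 and 91.9 for Csf1r, above all 4 WT libraries, while for Csf3r 3 of the 4 Tg libraries sit at 185.9 or more.

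Csf1r (ENSMUSG00000024621, chromosome 18, 61100598 to 61132149, plus strand, GRCm38) stood at 18.5, 36.1, 42.3 and 52.1 CPM in the WT libraries, at 90.0, 77.4 and 91.9 in KO, and at 68.1, 76.9, 57.6 and 28.0 in Tg. The KO values lay above every WT and every Tg value, while WT and Tg overlapped. Means were 37.2 ± 14.1 CPM in WT, 86.4 ± 7.92 in KO and 57.7 ± 21.3 in Tg. The KO mean was 2.33-fold that of WT in the fitted model (log2 fold change 1.22, SE 0.34), a difference with an unadjusted p of 0.00414 that did not pass over all genes (edgeR adjusted p = 0.479). Non-overlapping KO and WT values with KO higher were found for 3.79% of all genes tested, so Csf1r was 1 of many genes with this pattern. For Tg against WT the log2 fold change was 0.63 (SE 0.32, edgeR adjusted p = 0.274) and for Tg against KO it was -0.58 (SE 0.34, edgeR adjusted p = 0.356). Values below KO with no overlap in Tg were found for 11% of all genes. Without WT replicate 1, the lowest library, the KO log2 fold change was 0.98, and without the libraries holding both Xist and Y-linked reads it was 1.01.

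The last bases of Csf1r lie opposite Hmgxb3, a gene on the other strand that shares 873 bases with it. Reads from the 2 genes cannot be told apart there, since no source used here gives the strand setting of the counting. Hmgxb3 itself ran from 63.9 to 78.6 CPM over the 11 libraries, a narrower range than that of Csf1r.

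Monocyte and dendritic cell markers differed between WT and KO as well: 12 of 15 lay above WT in KO, 6 with no overlap and none called, and none was at 0 in all libraries. Their summed level ran from 674 to 1917 CPM in WT, from 1366 to 2212 in KO and from 735 to 1274 in Tg. Of 18 granulocyte-monocyte progenitor markers, 16 lay above WT in KO and 9 of these did not overlap. Over all genes tested, 48.8% lay above WT in KO and 3.79% did so with no overlap. The progenitor sums were 3936 to 7488 CPM in WT and 7594 to 9061 in KO, with no marker of the list called or at 0. Tissue macrophage markers had summed levels of 86.6 to 322 CPM in WT and 71.7 to 238 in KO, and 3 of the 15 tested lay above WT. Without the 4 libraries holding both Xist and Y-linked reads, when WT replicate 3 alone stands for WT, 15 of 15 monocyte and dendritic cell markers, 15 of 18 progenitor markers and 15 of 15 macrophage markers lay above WT in KO, so the direction of the macrophage list turned. The part of these cell types in the level of Csf1r was not tested. Across the 11 libraries Csf1r followed the monocyte and dendritic cell sum with a Pearson r of 0.49 and the tissue macrophage sum with an r of -0.37, as a description over libraries that differ in genotype.

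Csf3r (ENSMUSG00000028859, chromosome 4, 126024550 to 126044440, plus strand) had the other pattern. Its levels were 124.3, 84.1, 140.1 and 149.9 CPM in WT, 118.4, 132.6 and 104.7 in KO and 236.2, 202.5, 185.9 and 131.1 in Tg. Tg replicates 1 to 3 lay above all 7 other libraries, and Tg replicate 4 fell within the WT and KO range, so the groups overlapped. Group means were 124.6 ± 29.0 CPM in WT, 118.6 ± 14.0 in KO and 188.9 ± 43.9 in Tg. The log2 fold change was 0.60 for Tg against WT (SE 0.20, unadjusted p = 0.0103, edgeR adjusted p = 0.102) and 0.67 for Tg against KO (SE 0.21, unadjusted p = 0.00896, edgeR adjusted p = 0.0925). DESeq2 gave the same sizes with adjusted p-values of 0.0235 and 0.0169, which pass the threshold. Leaving out Tg replicate 4 also brought Csf3r past it in edgeR, with a log2 fold change of 0.74 against WT (adjusted p = 0.0459) and 0.81 against KO (adjusted p = 0.0419). Leaving out WT replicate 2 did so for Tg against KO alone (adjusted p = 0.0422). With 1 surrogate variable in the model the Tg values were 0.38 against WT and 0.38 against KO, with adjusted p-values of 0.269 and 0.280 by edgeR. For KO against WT the log2 fold change was -0.07 (SE 0.21, edgeR adjusted p = 0.970).

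In Tg, 436 of the 17183 genes tested were called above WT by edgeR and 410 below. Granulocyte-monocyte progenitor markers were higher in the Tg libraries, with 13 of 18 called above WT and none below. When the libraries holding both Xist and Y-linked reads were left out, 17 of 18 were still above WT and none was called, and their median log2 fold change was 2.17 in place of 1.89. Their sums ran from 3936 to 7488 CPM in WT and from 8742 to 31458 in Tg. Cst7, a cystatin of granule-bearing cells, rose by 1.82 on the log2 scale (SE 0.28, edgeR adjusted p = 0.00895), and Prtn3, the granule protease proteinase 3, rose by 2.86 (SE 0.46, edgeR adjusted p = 0.0105). Csf3r and this marker sum had a Pearson r of 0.79 over the 11 libraries. Against the T and NK cell sum its r was -0.83, against the B and plasma cell sum -0.76 and against the erythroid sum -0.69. The B and plasma cell sums were 209 to 331 CPM in Tg, below every WT library (350 to 5248) and every KO library (1508 to 6233). Tg replicates 1 and 2 had the highest progenitor marker sums and the highest Csf3r levels. Tg replicate 3 had the lowest progenitor marker sum of the 4 Tg libraries, but more Csf3r than Tg replicate 4. Of the mature neutrophil markers, 2 of the 13 tested were called above WT and none below, with sums of 70.6 to 177 CPM in WT and 96.3 to 751 in Tg. The list did not move as 1: 8 of the 13 lay above WT and 5 below, with a median log2 fold change of 0.18. With WT replicate 3 as the only WT library 11 of 13 lay above. Stfa2l1 was at 0 in all 11 libraries, and Ly6g was at 0 in every Tg library and at most at 0.400 CPM in WT. The part of any of these cell types in the level of Csf3r was not tested.

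The ratio of Csf3r to Csf1r counts, a value free of library size, set the granulocyte receptor beside the macrophage receptor. It was 6.72, 2.33, 3.31 and 2.88 in WT, 1.31, 1.71 and 1.14 in KO and 3.47, 2.63, 3.23 and 4.68 in Tg. Every KO library lay below every WT and every Tg library, and WT and Tg overlapped. The mean ratio was 3.81 ± 1.98 for the WT libraries (n = 4), 1.39 ± 0.295 for KO (n = 3) and 3.50 ± 0.859 for Tg (n = 4). On the log2 scale KO differed from WT by -1.35, a 2.55-fold lower ratio (exact two-sided permutation p = 0.0571, 0.257 adjusted over 9 tests of 3 ratios). Tg exceeded KO by 1.32 or 2.502-fold (exact two-sided permutation p = 0.0286, adjusted 0.257), and this p is the smallest that 4 libraries against 3 allow. Tg and WT differed by -0.03 (exact two-sided permutation p = 0.943, adjusted 0.943). After adjustment none of these differences passed 0.05. Leaving out each library in turn kept the KO difference from WT between -1.55 and -1.04, and without the libraries holding Xist and Y-linked reads it was -1.24, from 1 WT and 2 KO libraries.

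**Figure D2:**
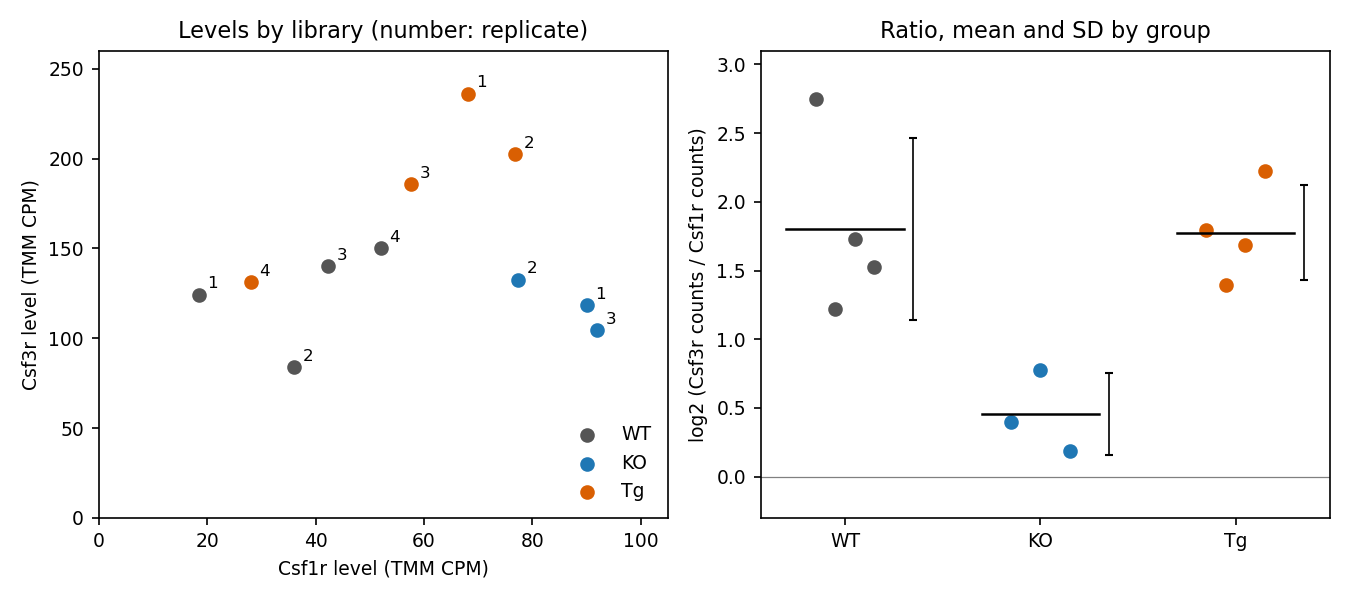
Left, Csf3r against Csf1r in TMM-scaled CPM, with 1 point per library and its replicate number; right, the log2 ratio of their counts by group, with the mean as a bar and 1 SD as whiskers. The 3 KO libraries form the lower right of the left panel, with Csf1r between 77.4 and 91.9 and Csf3r between 104.7 and 132.6, and their ratios lie below those of all other libraries.

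The alpha chain of the GM-CSF receptor, Csf2ra (ENSMUSG00000059326, chromosome 19, 61223957 to 61228429, minus strand), was at 17.1, 34.1, 16.1 and 37.4 CPM in WT, 26.3, 35.2 and 36.6 in KO and 40.4, 45.5, 27.4 and 41.2 in Tg. WT replicates 1 and 3 were the lowest of the 11 libraries, and the 3 groups overlapped. The log2 fold change was 0.32 in KO (SE 0.29, edgeR adjusted p = 0.854), 0.56 in Tg against WT (SE 0.27, edgeR adjusted p = 0.259) and 0.24 in Tg against KO (SE 0.30, edgeR adjusted p = 0.703). Without the libraries holding both Xist and Y-linked reads, when WT replicate 3 stands alone for its group, the KO value was 1.18 and the Tg value against WT 1.27, and neither passed. Csf2ra followed the summed level of 10 eosinophil markers with a Pearson r of 0.75 over the 11 libraries. Other myeloid sums came near it, with an r of 0.68 for mast cell and basophil markers and 0.61 for granulocyte-monocyte progenitor markers. For mature neutrophil markers it was 0.55, and for monocyte and dendritic cell markers 0.54. The eosinophil sum ran from 27.0 to 112 CPM in WT, 43.4 to 113 in KO and 36.6 to 235 in Tg. No eosinophil marker was called in any comparison or at 0 throughout. The part of any of these cell types in the level of Csf2ra was not tested.

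The shared beta chain Csf2rb (ENSMUSG00000071713, chromosome 15, 78325752 to 78353847, plus strand) and its neighbour Csf2rb2 (ENSMUSG00000071714, chromosome 15, 78282507 to 78305721, minus strand) lie 20030 bases apart on opposite strands. Their coding sequences, of 2691 and 2637 bases, are identical at 95.3% of 2629 aligned bases. The longest identical stretch is 242 bases, longer than a read of 150, and 3.58% of the windows of 150 bases in the Csf2rb transcript also occur in Csf2rb2. The authors' counting could have split or dropped such reads, so the level of each gene is uncertain to that extent. The first 120 coding bases of both genes show how close they are (GENCODE M21, GRCm38, 5′ to 3′), with the 4 positions that differ in capitals.
Csf2rb: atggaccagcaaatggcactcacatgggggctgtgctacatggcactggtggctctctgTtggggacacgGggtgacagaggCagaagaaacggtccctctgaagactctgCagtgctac
Csf2rb2: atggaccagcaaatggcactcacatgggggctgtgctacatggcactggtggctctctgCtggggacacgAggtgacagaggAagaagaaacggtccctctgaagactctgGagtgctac

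Csf2rb was at 66.8, 82.3, 136.4 and 87.2 CPM in WT, 110.3, 103.6 and 97.1 in KO and 159.6, 107.7, 100.03 and 75.5 in Tg. WT replicate 3 and Tg replicate 1 stood above the rest, the 3 KO libraries lay close together, and all groups overlapped. The log2 fold changes were 0.15 in KO (SE 0.25, edgeR adjusted p = 0.935), 0.25 in Tg against WT (SE 0.24, edgeR adjusted p = 0.587) and 0.09 in Tg against KO (SE 0.25, edgeR adjusted p = 0.879).

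Csf2rb2, the beta chain used by IL-3 alone, varied more between mice of a group. It was at 8.90, 21.5, 46.2 and 20.4 CPM in WT, 44.99, 27.8 and 21.3 in KO and 32.9, 42.8, 26.8 and 15.03 in Tg. Both the lowest and the highest of the 11 values came from WT, a 5.19-fold range. Its log2 fold changes of 0.37 in KO (SE 0.48, edgeR adjusted p = 0.903), 0.28 in Tg against WT (SE 0.45, edgeR adjusted p = 0.770) and -0.10 in Tg against KO (SE 0.48, edgeR adjusted p = 0.942) were all smaller than their standard errors. The ratio of Csf2rb2 to Csf2rb counts was 0.241 ± 0.0847 in WT, 0.299 ± 0.0977 in KO and 0.268 ± 0.0920 in Tg, with overlapping groups (exact two-sided permutation p of 0.457, 0.657 and 0.514, each 0.845 after adjustment). With both genes summed to 1 feature, the log2 fold change was 0.20 in KO and 0.25 in Tg against WT.

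Both signs depended on the WT libraries. Without the libraries holding Xist and Y-linked reads, which leaves WT replicate 3 alone as the reference, the KO values were -0.43 for Csf2rb and -0.89 for Csf2rb2, and the Tg values -0.30 and -0.65. WT replicate 3 is the library with the highest level of both genes in WT.

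Il3ra (ENSMUSG00000068758, chromosome 14, 14346275 to 14356011, plus strand) encodes the alpha chain that either beta chain can join to bind IL-3. It was at 12.5, 25.9, 29.3 and 17.0 CPM in WT, 21.4, 29.4 and 27.4 in KO and 27.8, 32.2, 26.6 and 14.2 in Tg. WT replicates 1 and 4 and Tg replicate 4 were the low libraries, and the groups overlapped. Its log2 fold changes were 0.30 in KO (SE 0.31, edgeR adjusted p = 0.877), 0.25 in Tg against WT (SE 0.29, edgeR adjusted p = 0.662) and -0.05 in Tg against KO (SE 0.31, edgeR adjusted p = 0.954). The antisense gene Gm48860, which shares 990 bases with it, had 6 counts in all 11 libraries together.

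Il5ra (ENSMUSG00000005364, chromosome 6, 106710357 to 106749037, minus strand), the receptor chain of eosinophils and some B cells, was the least abundant, with 10 to 107 counts per library. Its levels were 0.699, 2.31, 0.317 and 0.767 CPM in WT, 0.918, 3.21 and 0.939 in KO and 1.10, 0.917, 1.58 and 1.08 in Tg. WT replicate 2 and KO replicate 2 stood above the others. The same libraries had the highest summed level of 14 B and plasma cell markers, 5248 CPM in WT replicate 2 and 6233 in KO replicate 2, while the other libraries ran from 209 to 2732. None of these markers was at 0 in all libraries, and their part in the level of Il5ra was not tested. The log2 fold changes were 0.71 in KO (SE 0.62, edgeR adjusted p = 0.846), 0.18 in Tg against WT (SE 0.58, edgeR adjusted p = 0.892) and -0.53 in Tg against KO (SE 0.61, edgeR adjusted p = 0.682). Without KO replicate 2 the KO value was -0.14, and without WT replicate 2 it was 1.51. Without the libraries holding both Xist and Y-linked reads, when WT replicate 3 with the lowest Il5ra stands alone, it was 2.72 in KO and 1.87 in Tg against WT (edgeR adjusted p = 0.690 and 0.468).

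The ratio of Csf2ra counts to those of both beta chains ran from 0.0879 to 0.348 in WT, from 0.169 to 0.309 in KO and from 0.210 to 0.455 in Tg. WT replicate 3, with high beta chains and the lowest Csf2ra, gave the lowest ratio, and the groups overlapped in all 3 comparisons (adjusted exact permutation p of 0.845 to 0.943). On the log2 scale the ratio differed from WT by 0.14 in KO and 0.36 in Tg. With WT replicate 3 as the only WT library, once those holding both Xist and Y-linked reads were left out, these values were 1.71 and 1.68.

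Il6ra (ENSMUSG00000027947, chromosome 3, 89864059 to 89913196, minus strand) was at 44.5, 44.3, 58.9 and 67.3 CPM in WT, 65.8, 78.0 and 72.8 in KO and 88.3, 100.2, 56.9 and 55.2 in Tg. Tg fell into 2 high and 2 lower libraries, and only WT replicate 4 reached the KO range. The log2 fold change was 0.48 in Tg against WT (SE 0.20, unadjusted p = 0.0349, edgeR adjusted p = 0.189), 0.43 in KO (SE 0.22, edgeR adjusted p = 0.732) and 0.06 in Tg against KO (SE 0.22, edgeR adjusted p = 0.917). Without Tg replicate 2 the Tg value against WT was 0.31. Il6ra followed the granulocyte-monocyte progenitor marker sum with a Pearson r of 0.80 over the 11 libraries. For mast cell and basophil markers the r was 0.61, for mature neutrophil markers 0.57 and for eosinophil markers 0.47. It was -0.44 for T and NK cell markers and -0.48 for erythroid markers. The part of any of these cell types in the level of Il6ra was not tested. The antisense gene Gm42809, which overlaps Il6ra by 281 bases, held 97 counts in all libraries together.

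**Figure D3:**
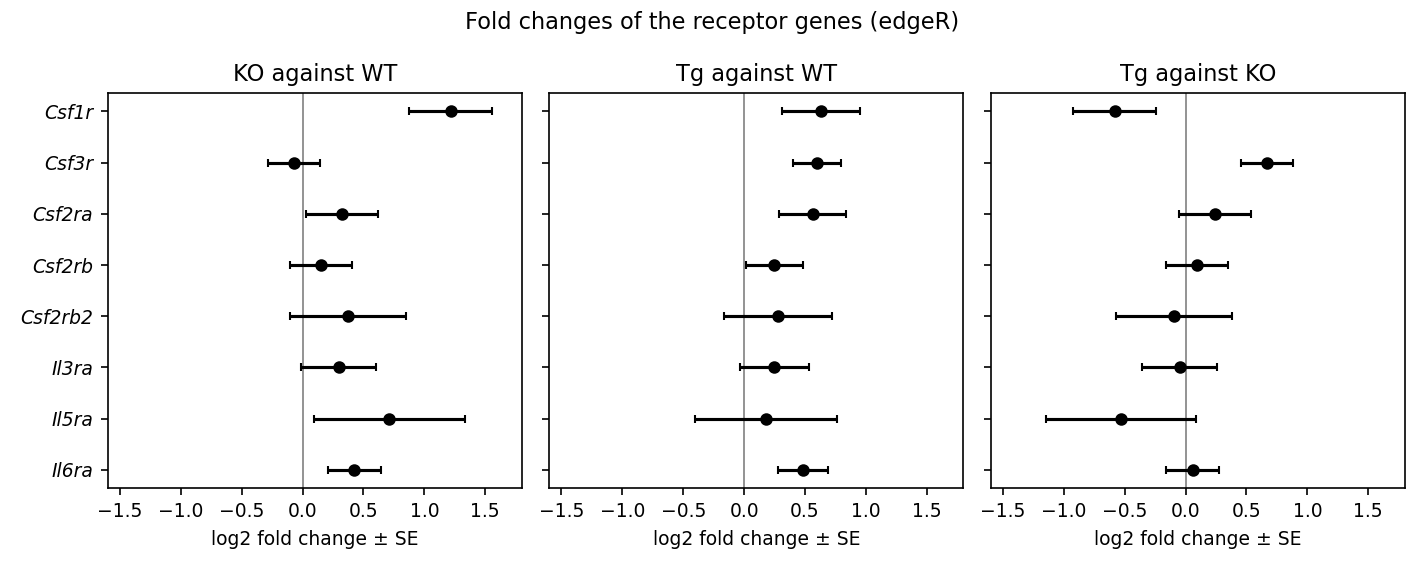
Log2 fold change of each receptor gene in the 3 comparisons from edgeR, with whiskers of 1 standard error and a line at 0. In Tg against WT all 8 points lie above 0, from 0.18 for Il5ra to 0.63 for Csf1r, and no gene passed the test over all genes in any panel.

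Across the family, 7 of 8 genes lay above WT in KO, with a median log2 fold change of 0.35 beside -0.01 over all genes, 48.8% of which lay above 0. In Tg all 8 lay above WT, with a median of 0.38 beside 0.01 over all genes, 50.8% of which lay above 0. Without the libraries holding both Xist and Y-linked reads, 4 of 8 lay above WT in KO (median 0.17, beside 52% of all genes) and 5 of 8 in Tg (median 0.39, beside 53.2%), so the common direction depended on which WT libraries were used. Between Tg and KO the genes divided evenly, 4 above 0 and 4 below, where 52% of all genes lay above, with a median of 0.01 both for the receptors and over all genes. The KO and Tg comparisons share the 4 WT libraries, so the like direction in both rests on the same controls. WT replicate 1 held the lowest of all 11 values for 4 of the 8 genes, and WT replicates 2 and 3 for 2 each. In Tg, replicate 4 was the lowest Tg library for 6 of 8 genes and replicate 2 the highest for 5. Csf2ra and Il5ra were lowest in WT replicate 3, the library that held the highest Csf2rb2 of all.

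To compare levels between genes, CPM was divided by the exonic length of each gene in kilobases. Csf3r came first in every group, with 34.5 ± 8.04 CPM per kb in WT, 32.8 in KO and 52.3 in Tg. It did not overlap with the gene after it in any group. Il5ra came last in every group, with 0.286 CPM per kb in WT, 0.473 in KO and 0.326 in Tg, again without overlap. Between them WT had Csf2rb (12.8), Csf2ra (9.12), Il3ra (7.14), Csf1r (6.45), Il6ra (6.22) and Csf2rb2 (5.11), in CPM per kb, and neighbours in this order overlapped in range. In KO the order was Csf1r (14.97), Csf2rb (14.2), Csf2ra (11.4), Il3ra (8.79), Il6ra (8.35) and Csf2rb2 (6.62), and Csf2rb and Csf2ra were the only neighbours among them that did not overlap. In Tg it was Csf2rb (15.2), Csf2ra (13.4), Csf1r (9.99), Il6ra (8.70), Il3ra (8.49) and Csf2rb2 (6.20), all overlapping with their neighbours. Csf1r thus stood at place 5 in WT, 2 in KO and 4 in Tg.

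**Figure D4:**
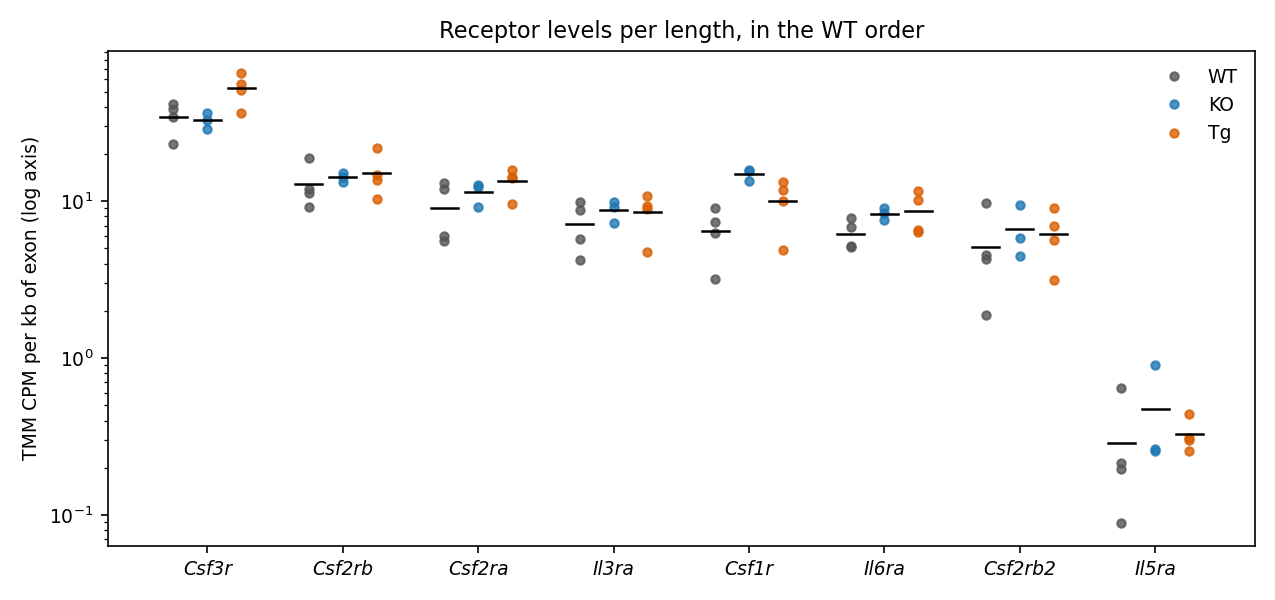
Level per kilobase of exon for each receptor gene and library on a log axis, in the order of the WT means, with bars at the group means. Csf3r lies above and Il5ra below the other 6 genes in all groups, and the Csf1r libraries of KO lie above those of WT.

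How the genes moved together was described by Pearson correlations of log2 CPM over the 11 libraries. These libraries differ in genotype and in their marker sums, so no test is attached. Of 28 gene pairs 13 had an r above 0.5, with a median of 0.447, and 12 pairs did so after the group means were removed. Csf2rb and Csf2rb2 had the highest r, 0.83, and share near-identical sequence. Csf2rb2 and Il3ra (0.78), Csf1r and Il6ra (0.78), Csf2rb and Il3ra (0.72), Csf1r and Csf2rb2 (0.72) and Csf1r and Il3ra (0.72) followed. The 2 chains of the GM-CSF receptor, Csf2ra and Csf2rb, had an r of 0.05, and of -0.17 after the group means were removed. Csf1r and Csf3r had an r of 0.25, and of 0.53 after the group means were removed.

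**Figure D5:**
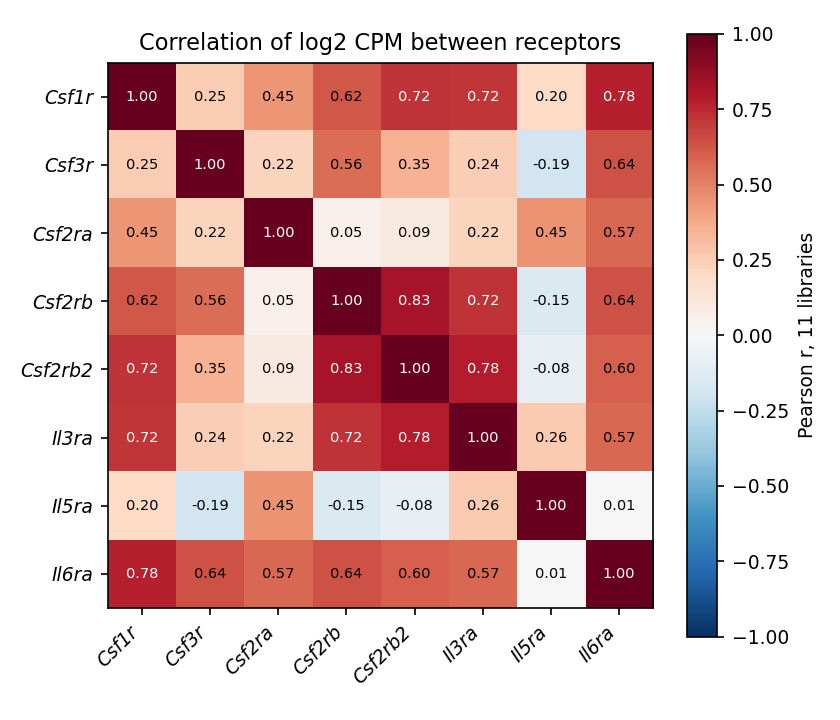
Pearson r of log2 CPM between each pair of receptor genes over the 11 libraries, with colour from -1 (blue) to 1 (red). Csf2rb, Csf2rb2 and Il3ra form a block with r between 0.72 and 0.83, while Il5ra has an r of at most 0.45 with any other receptor.

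In a search of the 10894 genes that averaged 5 CPM or more, those whose pattern was most like each receptor were read in the same way over the 11 libraries. Csf1r was most like Sp110 (r = 0.958), Rps16-ps2 (0.944) and Cd300lb (0.942). Csf3r was most like Ctif (0.948), Ndrg1 (0.947) and Slc7a8 (0.940). The nearest to Csf2ra was Slc8b1 (0.953), followed by Dclre1a and Sat1. For the beta chains they were Arl10 (0.941), Nipsnap3b and Cops7b with Csf2rb, and Mthfd2 (0.962), Dhps and Klf16 with Csf2rb2. Il3ra was closest to Trappc6a (0.978), then Chmp6 and Fastk, and Il6ra to Gpx4 (0.961), then Mocs1 and Tex2. Il5ra had no partner so close, with E030022I16Rik at 0.907, then Gm43336 and Gpr137b-ps. No test is attached to these values either, and each gene was picked as the highest of the whole search.

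Of the 7 genes for the ligands of these receptors 2 passed the filter, Csf1 and Il6, and the other 5 had few or no counts. Csf1, the ligand of CSF1R, was at 19.1 ± 5.54 CPM in WT, 18.2 ± 4.12 in KO and 23.3 ± 3.68 in Tg. Il6 was at 0.478 ± 0.416, 1.145 ± 0.702 and 1.69 ± 2.17 CPM in the same groups. Neither passed in any comparison. Il3 had 0 counts in all 11 libraries, Csf3 had 2, Il34 had 5, Il5 had 6 and Csf2 had 22 in total.

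Of 22 signal transducers downstream of the receptors, none was called in KO or in Tg against WT. Il6st, the gp130 partner of Il6ra, was at 112.3 ± 4.72 CPM in WT, 119.7 ± 15.1 in KO and 93.8 ± 5.49 in Tg. It fell by 0.35 on the log2 scale in Tg against KO (SE 0.09, edgeR adjusted p = 0.0399), as did Gab2, an adaptor of growth factor signalling, by 0.26 (SE 0.07, edgeR adjusted p = 0.0458). Both kept their direction (-0.25 and -0.24) without the libraries holding both Xist and Y-linked reads, and neither passed (edgeR adjusted p = 0.218 and 0.228). Against WT the Tg value of Il6st was -0.26 (SE 0.08, edgeR adjusted p = 0.0901).

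Of 21 genes that STAT and MAPK signalling induces or that restrain it, 2 were called in both Tg comparisons, both higher, and none in KO. Over all genes tested, 4.92% were called in Tg against WT and 5.69% in Tg against KO. Socs3, an inhibitor that binds the G-CSF receptor and gp130, was at 32.7 ± 9.88 CPM in WT, 17.9 ± 5.99 in KO and 81.6 ± 12.8 in Tg. It rose by 1.32 on the log2 scale in Tg against WT (SE 0.24, edgeR adjusted p = 0.0146) and by 2.19 against KO (SE 0.27, edgeR adjusted p = 0.00177), with no overlap between the Tg libraries and the others. Of 17183 genes tested, 774 had Tg values above WT with no overlap, and 1684 had Tg values above KO with none. The KO value of Socs3 against WT was -0.87 (SE 0.26, edgeR adjusted p = 0.535). Id1, a dimerisation inhibitor of helix-loop-helix factors, was at 2.60 ± 1.68 CPM in WT, 3.59 ± 0.985 in KO and 14.3 ± 7.57 in Tg. In Tg it rose by 2.48 against WT (SE 0.45, edgeR adjusted p = 0.0160) and by 2.00 against KO (SE 0.49, edgeR adjusted p = 0.0395). After the libraries holding both Xist and Y-linked reads were left out, Socs3 still passed against KO (2.49, edgeR adjusted p = 0.00123) but not against WT (1.06, adjusted p = 0.224), and Id1 passed against neither (adjusted p = 0.0902 and 0.263). The median of the 21 genes in Tg against WT was 0.01, beside 0.01 over all genes.

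In Tg against WT, 4.92% of all genes tested were called. Of 14 transcription factors known to act on receptor genes of this kind, 3 were called above WT and 1 below in Tg, and none in KO. Those called above were 3 C/EBP factors, which drive granulocyte genes: Cebpe rose by 3.35 (SE 0.62, edgeR adjusted p = 0.0161), Cebpd by 2.17 (SE 0.34, edgeR adjusted p = 0.0105) and Cebpb by 1.07 (SE 0.27, edgeR adjusted p = 0.0431). Against KO, 2 were called higher in Tg (Cebpd and Cebpe) and 1 lower. In the fit that leaves out the libraries holding both Xist and Y-linked reads, none of the 14 was called against WT, with adjusted p of 0.291 for Cebpe, 0.301 for Cebpd and 0.398 for Cebpb, and neither Cebpd nor Cebpe against KO.

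Promoter sequence, 250 bases before the RefSeq start, was present for 6 of the 8 genes in the RefSeq table (GRCm38.p6), all but Csf1r and Csf2rb. The motif GAGGAA, a core bound by PU.1 and related ETS factors, occurred in 4 of the 6, beside 23.3% of 32851 promoters. The motif TTGCNNAA, a C/EBP site, occurred in 1, Il3ra, beside 9.56%. Both strands were searched, the motifs share no bases in these windows, and they were chosen after the sequences had been seen. A match is a description of letters and not of binding. The 30 bases around each GAGGAA match, read along the gene's own strand from 5′ to 3′, are shown because the promoters shared this motif. Capitals mark it, in Csf2rb2 and Il6ra as the reverse complement. They lie at chr4:126024561-126024590 (Csf3r, plus), chr19:61228419-61228448 (Csf2ra, minus), chr15:78305871-78305900 (Csf2rb2, minus) and chr3:89913249-89913278 (Il6ra, minus).
Csf3r: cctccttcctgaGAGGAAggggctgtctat
Csf2ra: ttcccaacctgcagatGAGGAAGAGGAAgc
Csf2rb2: ctctgtgtctgcTTCCTCcagagaagtcag
Il6ra: cttcagcaccggTTCCTCaaatgtttcact

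The match begins 86 bases before the RefSeq start of Csf3r, 167 before that of Csf2rb2 and 70 before that of Il6ra. Csf2ra holds the motif at 14 and again at 8 bases before its RefSeq start. For Csf2rb2, Il5ra and Il6ra this start is also the first base of the gene in GENCODE M21, from which the gene positions above were taken. The RefSeq start lies 109 bases downstream of that base in Csf3r, 11 in Csf2ra and 220 in Il3ra, so by GENCODE the matches of Csf3r and Il3ra and the second of Csf2ra lie within the gene, and the first of Csf2ra lies across its start.

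Of 33 receptor genes for other cytokines, none was called in KO, while in Tg against WT 2 were called higher and 7 lower. Over all 17183 genes tested, 436 were called higher in Tg against WT and 410 lower. The median of the 33 in Tg against WT was -0.24, where that of the 8 myeloid receptors was 0.38. Il11ra1, an alpha chain that also uses gp130, rose by 0.72 (SE 0.14, edgeR adjusted p = 0.0168). Ifnar1, of the type I interferon receptor, fell by 0.43 (SE 0.06, edgeR adjusted p = 0.00461), Il17ra by 0.42 (SE 0.08, edgeR adjusted p = 0.0162) and Il2rb, of lymphocytes, by 2.33 (SE 0.50, edgeR adjusted p = 0.0260). The difference between the lists was not tested. None of the 33 was called against WT without the libraries holding both Xist and Y-linked reads, with a median of -0.24 again. T and NK cell markers summed to 33.9 to 61.4 CPM in WT, 46.5 to 57.7 in KO and 19.1 to 25.5 in Tg, and 5 of 13 were called lower in Tg against WT and none higher. With WT replicate 3 as the only WT library none of the 13 was called, and 8 lay above WT.

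Macrophage markers and Csf1r did not run in parallel in Tg. Over all 17183 genes tested, 410 were called lower in Tg against WT and 436 higher. Of 15 tissue macrophage markers tested, 6 were called lower in Tg against WT and none higher, among them Spic, a factor of red pulp macrophages, which fell by 1.84 (SE 0.28, edgeR adjusted p = 0.00940), and Cd5l, which fell by 4.42 (SE 0.82, edgeR adjusted p = 0.0165). Their sums ran from 86.6 to 322 CPM in WT and from 49.0 to 203 in Tg, while the Csf1r mean was higher in Tg than in WT without passing the test. Of the 15 macrophage markers 12 lay below WT, and none was called, without the libraries holding both Xist and Y-linked reads. Of 15 monocyte and dendritic cell markers, Ccr2 fell by 1.92 (SE 0.36, edgeR adjusted p = 0.0171). Ly6c2, which the progenitor list also holds, rose by 3.07 (SE 0.73, edgeR adjusted p = 0.0376). With WT replicate 3 as the only WT library these values were -0.84 and 4.23. Against KO, Ccr2 (-3.19), Spic (-1.68) and Cd5l (-3.93) were called lower in Tg (edgeR adjusted p = 0.00175, 0.0100 and 0.0228). No other gene of the macrophage and monocyte lists was called there. Without the libraries holding both Xist and Y-linked reads, which leaves 2 KO libraries, the values of these genes were -3.48, -1.90 and -4.36.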

How the data were processed

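The deposited table holds raw read counts by gene symbol for 11 libraries of LSK cells, as the authors made it. Per the submitters' processing notes, FastQC, Trimmomatic, STAR, HTSeq and the build mm10 were used. No source used here gives versions, annotation or strand setting. Counts were fitted for all 11 libraries together with edgeR 4.0.16 (R 4.3.3): filterByExpr, TMM factors, no covariate, quasi-likelihood test, Benjamini-Hochberg adjustment over 17183 genes, called under 0.05. A standard error is the log2 fold change over the square root of its F. CPM are TMM-scaled, except Xist and Y-linked levels, which use library totals. Ratios of counts (pseudocount 0.5) had exact permutation tests over libraries. The labels name individual mice, although 4 libraries held both Xist and Y-linked reads. The edgeR p-values test a group difference against the variation between libraries of a group, and the permutation p-values compare relabellings of the libraries. Gene positions and exonic lengths came from GENCODE M21 (GRCm38, as mm10), promoters from RefSeq.

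The members and lists were chosen with earlier results of these data known. Genes named are all members, Phf6, at most 4 called genes of lowest p per list and comparison, and the 3 most alike (log2 CPM with a pseudocount of 0.5). Hmgxb3, Gm48860, Gm42809, ligands, Il6st in every group, Xist and single markers at 0 were named in addition, after their values were seen. Not all called genes are named, and 1 result that the rule names is not reported here.

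Alternatives were DESeq2 1.42.0, limma-voom 3.58.1, 3 other scalings, no filter or 2 CPM in 3 libraries, a fit of the compared groups alone, replicate number as a block, 1 surrogate variable (sva 3.50.0), robust empirical Bayes, both beta chains summed and each library left out. Leaving out the libraries with Xist and Y-linked reads (each over 10 CPM) and the Y-linked level as a covariate were added after the data were seen. The fit was tested on simulated data. Figures used matplotlib 3.10.9 (Python 3.11.15).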

Additional observations from a re-analysis of the deposited data

How the results depend on the processing

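The count of receptor genes called stayed at 0 in 70 of 75 alternatives. It was 1, Csf3r each time, under DESeq2 (Tg against WT and Tg against KO), and when 1 library was left out it ran from 0 to 1 in both Tg comparisons and stayed at 0 for KO against WT. Under all alternatives Csf3r kept its sign in Tg, from 0.38 to 0.74 against WT (adjusted p 0.0235 to 0.633) and from 0.38 to 0.83 against KO (adjusted p 0.0169 to 0.280), and Csf1r in KO against WT ran from 0.98 to 1.42 (adjusted p 0.179 to 0.997). Of 591 gene values under the alternatives 31 reversed in sign. No receptor was called in the main fit, so no reversal could involve a called gene. The cause of each reversal was not tested. No sign that the replicate numbers pair the libraries was seen (3 of 10 same-numbered pairs correlated over 0.1, range -0.348 to 0.140). With so few libraries per group these correlations cannot exclude pairing. With the replicate block the count of called receptors was 0 in each comparison, the value of Il3ra in Tg against KO was 0.0893, and the ratio of Csf2ra to the beta chains in Tg against KO was -0.0100. With 1 surrogate variable Csf2rb2 in Tg against WT was -0.0393, and in Tg against KO Csf2rb was -0.21, Il6ra -0.0843 and Il5ra 0.19. Without the libraries holding Xist and Y-linked reads, which leaves 1 WT library assumed to vary like the other groups, KO against WT gave -0.43 for Csf2rb, -0.89 for Csf2rb2 and -0.0303 for Il3ra. Tg against WT then gave -0.30, -0.65 and -0.22 for the same genes, and Tg against KO 0.24 for Csf2rb2 and -0.0177 for Il6ra. In the same setting the log2 ratio of Csf3r to Csf1r differed by 0.0491 in Tg against WT, that of Csf2rb2 to Csf2rb by -0.48 in KO and -0.40 in Tg against WT and by 0.0826 in Tg against KO, and that of Csf2ra to the beta chains by 1.71 in KO and 1.68 in Tg against WT and by -0.0333 in Tg against KO. Il5ra was then 2.72 in KO and 1.87 in Tg against WT. With the Y-linked level as a covariate Il5ra in Tg against WT was -0.11, and in Tg against KO Csf2rb2 was 0.19 and Il3ra 0.35. Leaving out 1 library at a time gave, in Tg against WT, -0.00606 to 0.79 for Csf2rb2 and -0.13 to 0.98 for Il5ra, and in KO against WT -0.22 to 0.0288 for Csf3r and -0.14 to 1.51 for Il5ra. In Tg against KO it gave -0.14 to 0.24 for Csf2rb, -0.33 to 0.26 for Csf2rb2, -0.19 to 0.15 for Il3ra, -0.83 to 0.33 for Il5ra and -0.11 to 0.18 for Il6ra. The ratio of Csf3r to Csf1r then ran from -0.22 to 0.29 in Tg against WT, that of Csf2rb2 to Csf2rb from -0.0933 to 0.35 in Tg against WT and from -0.38 to 0.0826 in Tg against KO, and that of Csf2ra to the beta chains from -0.30 to 0.40 in KO against WT, -0.0739 to 0.59 in Tg against WT and -0.0333 to 0.40 in Tg against KO. Il5ra, with as few as 10 counts in a library, is the gene that depth limits most. No scaling alternative moved the median of all genes by over 0.1.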
